A study of Mus musculus with 101 samples.

Results

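Carcinosarcomas and adenocarcinomas are 2 histology classes of the same mouse mammary tumour models, and their copy-number profiles were compared in the genotypes KP and KB1(L1363P)P. The members were all tumours of these genotypes whose histology label was carcinosarcoma (n = 11) or adenocarcinoma (n = 9), 20 of the 98 tumours and 101 samples of the series. KB1(L1363P)P gave 9 carcinosarcomas and 3 adenocarcinomas, and KP gave 2 carcinosarcomas and 6 adenocarcinomas. Another 12 KB1(L1363P)P and 10 KP tumours were sarcomatoid and were not used. In the usual naming of these conditional models, KP tumours have lost Trp53 in cells that express a keratin 14 driven Cre recombinase, and KB1(L1363P)P tumours add a Brca1 allele with the missense variant named in the study's title, which lies in the coiled-coil domain that binds Palb2. Loss of Trp53 is therefore shared by every tumour compared. The labels give the genotypes by these abbreviations alone, without zygosity, age, strain or treatment, and all tumours are labelled mammary tumour. Below, a KB1(L1363P)P tumour is named by L1363P and its number and a KP tumour by KP and its number.

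A mammary carcinosarcoma holds malignant epithelial and malignant spindle-shaped mesenchymal cells in one mass, while an adenocarcinoma keeps glandular epithelial differentiation throughout. Epithelial-mesenchymal transition, in which epithelial cells lose junctions such as E-cadherin and gain a migratory state, is the process usually discussed for the spindle component. In Trp53-deficient mammary tumours, copy-number change is a main class of somatic alteration: whole chromosomes or arms are lost or gained, and short stretches can be amplified to many copies around a growth-promoting gene. Met encodes the receptor for hepatocyte growth factor, which drives epithelial scattering, and Yap1 encodes the transcriptional effector that the Hippo kinase cascade restrains.

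Genomic DNA was sequenced at low coverage, and each gene has a log2 ratio, a log2 segment value and a whole-number copy score with 2 as neutral. In 99.9919% of values the score is the segment value turned back into a number of copies and rounded, and there a gain needs a segment value of about 0.32 or more and a loss about -0.42 or less. The few other values include a gain call at -0.06. A loss of 1 of 2 copies in a pure sample would give -1. In a bulk tumour, the share of cells that carry a change and the size of the change in those cells cannot be told apart. The carcinosarcomas were labelled 2% to 98% epithelial (median 85%), with 3 of them under 50%, and every adenocarcinoma was labelled 100%. The bracketed part of each tumour's title starts with 5289 or 5490. This number is called a library series here, although the titles do not say what it stands for. Both series held both classes: series 5289 held 7 carcinosarcomas and 4 adenocarcinomas, and series 5490 held 4 and 5. The 3 spleens of the study had no altered gene and no segment value above 0.00544 in absolute terms. Neighbouring log2 ratios differed by a median of 0.0465 to 0.0610 in the carcinosarcomas and 0.0371 to 0.0861 in the adenocarcinomas, the highest value being that of KP 236.1. Read depth is unknown, and no total count was used. The animal behind each tumour is not labelled, and the p-values therefore cover the spread among the tumours and nothing wider.

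The clearest of 5 measures of genome alteration was the loss of genes, which was on average smaller in carcinosarcomas, but none of the 5 passed the adjustment for multiple tests. The share of genes with a loss call ran from 0% to 12.9% with a median of 7.41% in the 11 carcinosarcomas, and from 4.21% to 38.6% with a median of 12.6% in the 9 adenocarcinomas. The classes overlapped: KP 5, the carcinosarcoma with most losses, lay above the adenocarcinoma median, and KP 90.1 and KP 40 lay below the carcinosarcoma median among adenocarcinomas. The mean lost share was 6.73% ± 4.49 (SD, n = 11) against 14.8% ± 10.7 (SD, n = 9), a difference of -8.10 points (two-sided exact permutation p = 0.0194). Adjusted over the 5 measures of genome alteration by Benjamini-Hochberg, p was 0.0968, so the difference did not pass 0.05. Without L1363P 26.2 the difference was -5.12 points (exact permutation p = 0.0512, adjusted p = 0.159).

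The share of altered genes, gained or lost, was 9.24% ± 6.39 (SD) in carcinosarcomas and 18.8% ± 13.0 (SD) in adenocarcinomas (exact permutation p = 0.0394, adjusted p = 0.0986). Without L1363P 26.2 the difference was -6.33 points in place of -9.55 (exact permutation p = 0.0952). Its range was 0.0942% to 18.1% in the first class and 4.33% to 44.6% in the second. L1363P 4 and L1363P 17, labelled 2% and 5% epithelial, had the lowest values, 0.0942% and 0.140%, and no lost gene. L1363P 4 was not flat below the calling threshold: 45.9% of its genes had a segment value above 0.1 or below -0.1. The part of the epithelial percentage in these 2 values was not tested.

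Gains covered 2.50% ± 2.97 (SD) of genes in carcinosarcomas and 3.96% ± 3.95 (SD) in adenocarcinomas (exact permutation p = 0.370, adjusted p = 0.463). Breakpoints, changes of segment value between neighbouring genes of a chromosome, numbered 46.5 ± 29.2 (SD) against 83.2 ± 56.5 (SD), from 14 to 100 and from 10 to 184 per tumour (exact permutation p = 0.0759, adjusted p = 0.127). Without KP 89 the difference was -24.2 in place of -36.8. The adenocarcinomas thus held both the fewest breakpoints, 10 in KP 39, and the most, 184 in KP 89 and 143 in KP 131.03A. Large-scale transitions are breaks between segments of at least 10 Mb and are widely used as a sign of deficient homologous recombination. They numbered 6.18 ± 4.00 (SD) in carcinosarcomas and 6.22 ± 3.96 (SD) in adenocarcinomas, with 0 to 13 per tumour in each class (exact permutation p = 1.00).

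**Figure D1:**
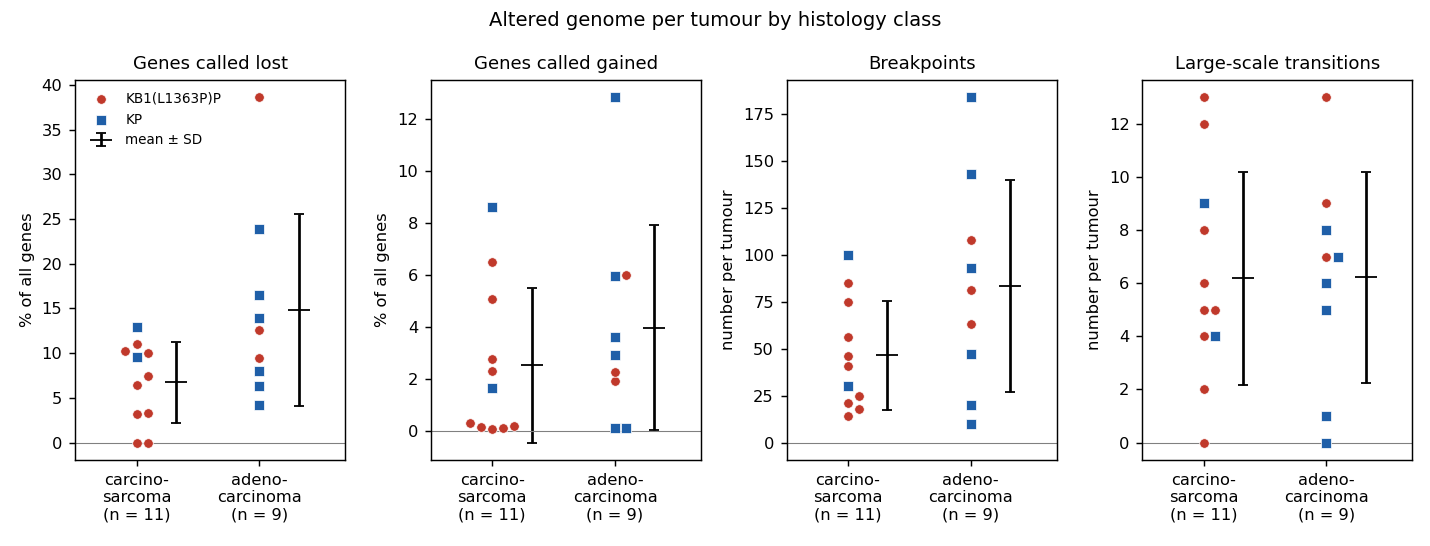
Altered genome per tumour by histology class. Each panel plots 1 measure (share of genes in percent, or a count per tumour) for the 11 carcinosarcomas and 9 adenocarcinomas, with genotype by colour and marker and the mean ± SD beside the points. The lost shares of the carcinosarcomas end at 12.9% and those of the adenocarcinomas reach 38.6%, while the large-scale transitions run from 0 to 13 in both.

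Within KB1(L1363P)P the classes overlapped in the lost share at 1 tumour. The 9 carcinosarcomas had lost shares of 0% in L1363P 4 and L1363P 17, 6.49% in 18, 3.31% in 54.2, 9.97% in 45, 7.41% in 53, 11.1% in 54.1, 10.2% in 6 and 3.25% in 21.1. The 3 adenocarcinomas had 38.6% in L1363P 26.2, 12.6% in 7.2 and 9.52% in 52. Only L1363P 52 among these adenocarcinomas lay within the carcinosarcoma range. The mean difference was -14.5 points (exact permutation p = 0.0182, n = 9 and 3, where the smallest possible p is 0.00455). The altered share differed by -16.0 points (exact permutation p = 0.0364), and breakpoints by -41.7 per tumour (exact permutation p = 0.0409). All 3 had an adjusted p of 0.0682 over the 5 measures. Large-scale transitions averaged 6.11 ± 4.29 (SD, n = 9) and 9.67 ± 3.06 (SD, n = 3), with an exact permutation p of 0.250.

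Within KP the class means of the lost and altered shares were close. KP 5 and KP 130.10A, the 2 carcinosarcomas, had lost shares of 12.9% and 9.53%. The 6 adenocarcinomas had 13.9% in KP 39, 6.30% in 40, 23.8% in 89, 4.21% in 90.1, 16.5% in 131.03A and 7.97% in 236.1, so both carcinosarcomas lay inside their range. Lost shares averaged 11.2% and 12.1% (exact permutation p = 0.893, with 0.0357 the smallest possible p for 2 against 6 tumours). Altered shares averaged 16.3% and 16.4% (exact permutation p = 1.00). Whether the histology difference itself differed between the genotypes was tested for each measure, and none passed: for the lost share the 2 differences were apart by -13.6 points (exact permutation p = 0.0998, adjusted p = 0.269).

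With labels exchanged only within a genotype, the lost share differed by -9.08 points (exact permutation p = 0.0427, adjusted p = 0.214). Within series 5289 the difference was -11.7 points (exact permutation p = 0.0455, adjusted p = 0.152) and within series 5490 it was -4.59 points (exact permutation p = 0.357, adjusted p = 0.546). Without the 3 carcinosarcomas labelled under 50% epithelial, lost shares averaged 8.45% ± 3.54 (SD, n = 8) against 14.8%, a difference of -6.39 points (exact permutation p = 0.122).

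The 8 carcinosarcomas labelled 75% epithelial or more allowed a correlation with that percentage, while the labels of the other 3 lay apart at 2%, 5% and 40%. Over these 8, the lost share gave Pearson's r = 0.24 (exact permutation p = 0.562, adjusted p = 0.959) and Spearman's rho = 0.12 (exact permutation p = 0.774, adjusted p = 0.774). Without the 2 tumours farthest from the median percentage, r was 0.44 over 6 tumours. Breakpoints gave r = -0.0060 (exact permutation p = 0.959) and rho = -0.16 (exact permutation p = 0.71) over the same 8, and 2 relations were computed. No relation with the percentage was detectable at this number of tumours and over their narrow range of 75% to 98%. The 3 carcinosarcomas left out had a mean lost share of 2.16%, against 8.45% in these 8, so a relation over the whole range was not tested.

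**Figure D2:**
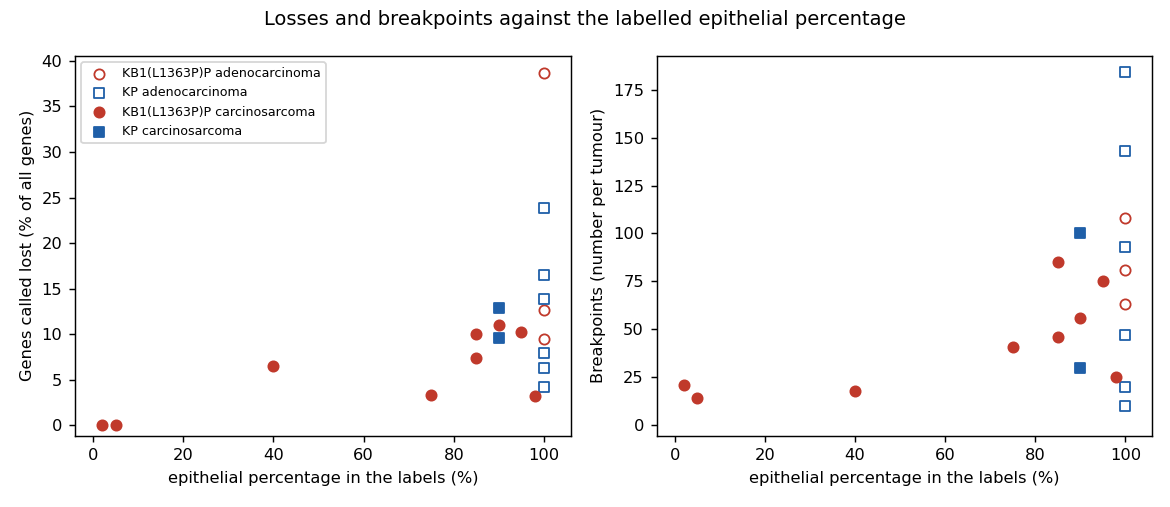
Losses and breakpoints against the labelled epithelial percentage. The x axis gives the epithelial percentage (%), the y axes the lost share (% of genes) and the number of breakpoints per tumour; filled markers are carcinosarcomas, open markers adenocarcinomas, circles KB1(L1363P)P and squares KP. The adenocarcinomas stand together at 100%, and the 2 carcinosarcomas at 2% and 5% have a lost share of 0%.

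Chromosome 12 was the loss common to both classes. The mean segment value of its 1235 placed genes ran from -0.91 to -0.24 in the carcinosarcomas and from -0.84 to -0.22 in the adenocarcinomas, and it was -0.2 or lower in 11 of 11 and 9 of 9 tumours. The means were -0.58 ± 0.24 (SD, n = 11) and -0.55 ± 0.20 (SD, n = 9), a difference of -0.03 (exact permutation p = 0.770, adjusted p = 0.810 over 20 chromosomes). Loss calls covered 68.8% of its genes in the average carcinosarcoma and 73.6% in the average adenocarcinoma. L1363P 4 and L1363P 17 also had their lowest chromosome level there, at -0.33 and -0.24, although neither had a loss call. Between Gm1818 and Nrxn3 (chr12:48555059-90334935) 439 genes were each lost in 9 of 11 carcinosarcomas, the highest number of any gene, and Gm1818 in 7 of 9 adenocarcinomas. Among them are Foxa1, a pioneer factor of luminal epithelium, Fancm of DNA repair, the Hippo scaffold gene Sav1, the Myc partner Max and the ligand gene Tgfb3.

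Chromosomes 7, 8 and 10 had lower levels in adenocarcinomas, and chromosome 16 had a lower level in carcinosarcomas, but no chromosome passed the adjustment over 20 in the pooled comparison. In carcinosarcomas chromosome 7 averaged -0.05 ± 0.11 (SD) and in adenocarcinomas -0.23 ± 0.23 (SD), a difference of 0.18 (exact permutation p = 0.0124, adjusted p = 0.247). With labels exchanged within genotype it was 0.29 (exact permutation adjusted p = 0.0455), and within genotype and library series 0.30 (exact permutation adjusted p = 0.0298). In KB1(L1363P)P alone it was 0.36 (exact permutation adjusted p = 0.0682), and in KP alone 0.20 (exact permutation adjusted p = 0.893). Among adenocarcinomas L1363P 26.2 stood lowest at -0.77 and L1363P 52 next at -0.39. Among carcinosarcomas the lowest was L1363P 54.1 at -0.25, and without it the pooled comparison called chromosome 7 as the only chromosome. Without L1363P 26.2 the difference was 0.12 (exact permutation adjusted p = 0.639).

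Chromosome 8 averaged -0.01 ± 0.16 (SD) in carcinosarcomas and -0.23 ± 0.32 (SD) in adenocarcinomas (exact permutation p = 0.0669, adjusted p = 0.335), and the adjusted p was 0.0855 with labels exchanged within genotype, 0.208 within library series and 0.0298 within both. In KB1(L1363P)P alone the chromosome 8 difference was 0.50 (exact permutation adjusted p = 0.0727), and in KP alone 0.12 (exact permutation adjusted p = 0.929). The adenocarcinomas L1363P 26.2 and 7.2 were at -0.77 and -0.74 and KP 131.03A at -0.33, whereas L1363P 6 was the lowest carcinosarcoma at -0.40. Chromosome 10 averaged 0.01 ± 0.14 (SD) and -0.17 ± 0.21 (SD) (exact permutation p = 0.0357, adjusted p = 0.335). In KB1(L1363P)P alone its difference was 0.40 and that of chromosome 13 was 0.25, both with an exact permutation adjusted p of 0.0455. For both chromosomes all 3 adenocarcinomas lay below all 9 carcinosarcomas, which gives the smallest p of that design. On chromosome 13, however, only L1363P 26.2 was clearly low, at -0.58. There L1363P 7.2 and 52 were at -0.05 and -0.07, close to the lowest of these carcinosarcomas, L1363P 21.1 at -0.04. In KP the chromosome 10 difference was -0.06 (exact permutation p = 0.643). Chromosome 16 averaged -0.15 ± 0.18 (SD) in carcinosarcomas and -0.02 ± 0.09 (SD) in adenocarcinomas (exact permutation p = 0.0643, adjusted p = 0.335). Its difference was -0.17 in KB1(L1363P)P (exact permutation p = 0.114) and -0.02 in KP (exact permutation p = 0.821). The lowest carcinosarcomas were L1363P 45 at -0.52, L1363P 18 at -0.42 and L1363P 53 at -0.25.

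Losses of 80% or more of a chromosome's genes were called for chromosomes 3, 4, 6, 7, 8, 13, 18 and X in adenocarcinomas and in no carcinosarcoma, and for chromosome 16 in 2 carcinosarcomas (L1363P 18 and L1363P 45) and no adenocarcinoma. L1363P 26.2 carried 6 of the adenocarcinoma losses, of chromosomes 3, 4, 7, 8, 13 and 18. The median number of such losses per tumour was 1 in carcinosarcomas and 2 in adenocarcinomas. Chromosome 12 was lost whole by this rule in 5 of 11 and 3 of 9. These counts are a description and were not tested.

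**Figure D3:**
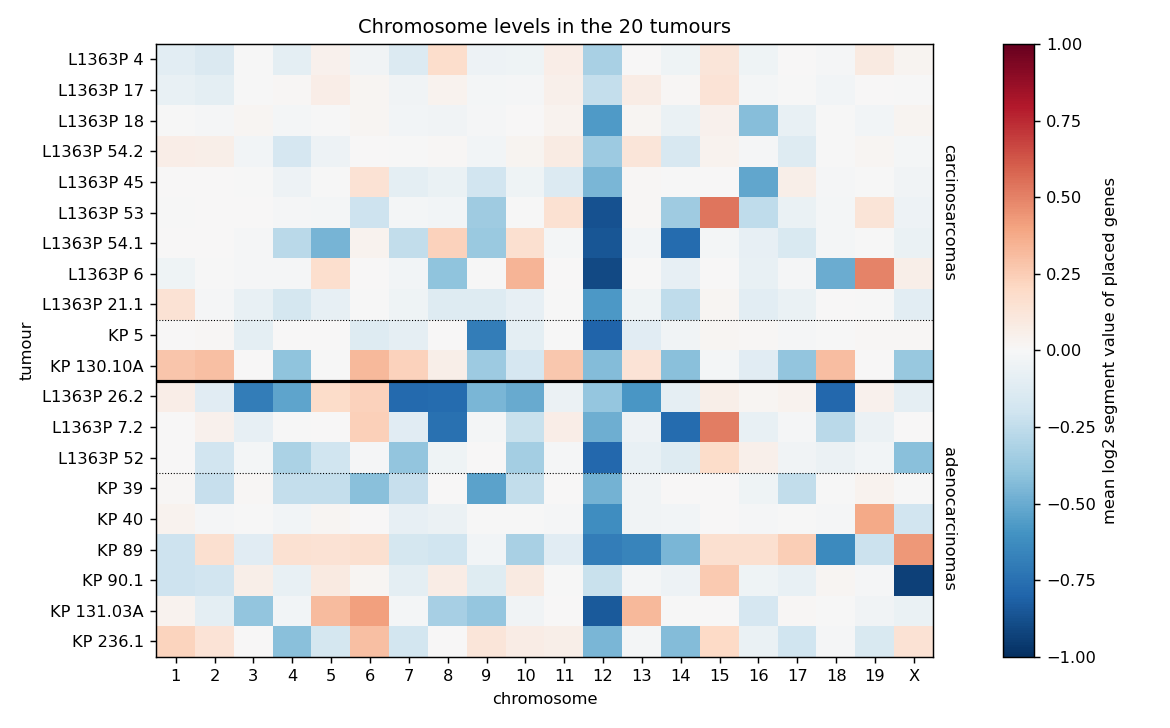
Chromosome levels in the 20 tumours. Rows are tumours grouped by genotype and histology, columns are chromosomes, and colour gives the mean log2 segment value of the placed genes. Chromosome 12 is at -0.2 or lower in all 20 tumours, and the low levels of L1363P 26.2 on chromosomes 7, 8 and 18 reach -0.77 to -0.79.

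**Figure D4:**
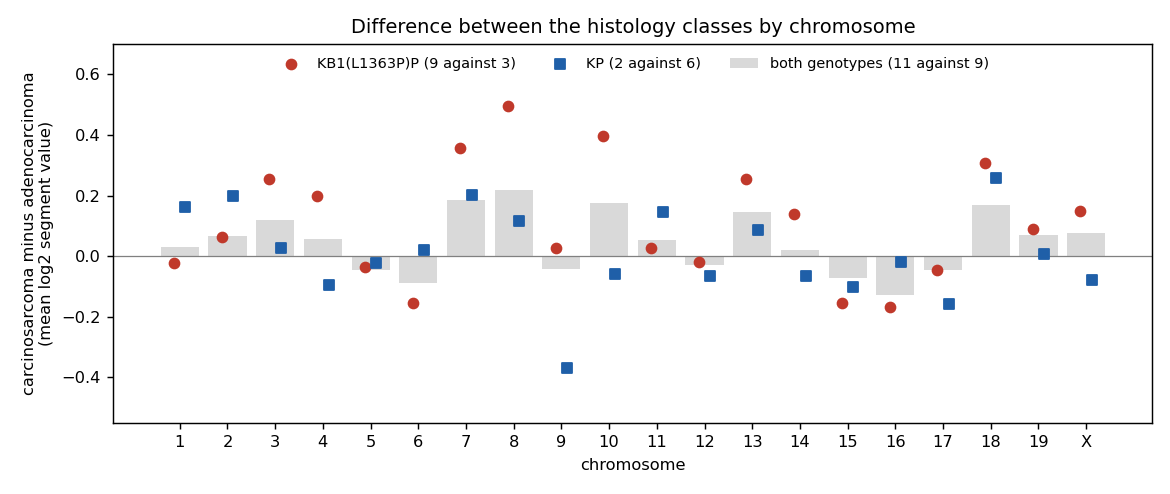
Difference between the histology classes by chromosome. The y axis gives the mean log2 segment value of carcinosarcomas minus that of adenocarcinomas; bars show both genotypes (11 against 9), circles KB1(L1363P)P (9 against 3) and squares KP (2 against 6). Chromosome 10 differs by 0.40 in KB1(L1363P)P and by -0.06 in KP.

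Gene by gene, the pooled comparison called no gene. limma on the segment values of 43513 genes gave 0 genes at a Benjamini-Hochberg adjusted p under 0.05 (0%), with a smallest adjusted p of 0.583, and 3215 genes (7.39%) at an unadjusted p under 0.05. Of these, 3081 (7.08%) were higher in carcinosarcomas and 134 (0.308%) lower. Fisher's exact test on gain and loss calls also called 0 (0%) of 87026 tests, with 14 (0.0161%) under an unadjusted 0.05. The higher genes with a position lay on chromosomes 7 (804 genes), 13 (402), 8 (481), 3 (294), 11 (134), 18 (121), 6 (19), 10 (2) and X (1). All 82 lower genes with a position lay on chromosome 6, and the other 52 lower genes had no position. Neighbouring genes share segments, so these counts stand for few separate events.

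The stretches with the smallest p on chromosomes 7, 8, 13 and X had low values in some adenocarcinomas, and that on chromosome 11 had high values in some carcinosarcomas. Ikzf5 to Insyn2a (chr7:131388649-135173647, 40 genes) ran from -0.14 to 0.22 in carcinosarcomas and from -0.87 to 0.00 in adenocarcinomas, and the mean difference was 0.31. Haus8 to F2rl3 (chr8:71250597-72763898, 66 genes) ran from -0.13 to 0.27 and from -0.86 to 0.08, and differed by 0.35. Chrm3 to Gm31600 (chr13:9875486-37767935, 374 genes, with the cell-cycle factor gene E2f3) ran from -0.11 to 0.13 and from -0.78 to -0.02, a difference of 0.21 that reflects low values in L1363P 26.2 (-0.78) and KP 89 (-0.66). On chromosome 11, Tmc6 to Gm12586 (chr11:117765985-121858571, 134 genes) ran from -0.02 to 0.52 and from -0.63 to 0.21, a difference of 0.23. On X, Gm4784 (chrX:109388744-109390520) ran from -0.16 to 0.06 and from -0.94 to 0.15, a difference of 0.27. The chromosome 11 stretch holds Rptor, which encodes a subunit of mTORC1 and had a gain call in 2 carcinosarcomas and a loss call in 1 adenocarcinoma.

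When genotype entered the fit as a covariate, limma called 185 genes (0.425%), all higher in carcinosarcomas. The 134 of them with a position all lay on chromosome 7, in 4 stretches between 126814041 and 135173647. They include Fgfr2, a receptor for fibroblast growth factors (chr7:130162451-130266808). Fgfr2 ran from -0.14 to 0.22 with a median of -0.01 in carcinosarcomas and from -0.77 to 0.001 with a median of -0.23 in adenocarcinomas. The pooled difference was 0.26 ± 0.09 (SE, unadjusted limma p = 0.00656), and the adjusted p with the covariate was 0.0178. At Fgfr2 a loss was called in L1363P 26.2 and in no other tumour. L1363P 7.2 was at -0.42 there, about the limit for a loss call. The called stretches on either side of Fgfr2 averaged -0.85 and -0.87 in that tumour.

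Within KB1(L1363P)P, stretches of chromosomes 7, 8 and 18 were at higher levels in the 9 carcinosarcomas than in the 3 adenocarcinomas. limma called 707 genes (1.62%), all higher in carcinosarcomas: 354 on chromosome 7 in 5 stretches, 187 on chromosome 8 in 6, 7 on chromosome 18 and 159 without a position. The calls rest on 3 adenocarcinomas. Without L1363P 26.2 the count was 182, of which 131 lay on chromosome 7 and the rest had no position, and without L1363P 7.2 it was 5314, with 232 of them lower. Without L1363P 52 it was 3269, with 370 lower, and without the carcinosarcoma L1363P 6 it was 3078. Without the carcinosarcomas labelled under 50% epithelial it was 183, with 132 on chromosome 7 and the rest without a position. Within series 5289 alone the count was 2619, all higher and including all 707, whereas within series 5490, with 3 carcinosarcomas and 1 adenocarcinoma, 8 genes were higher and 272 lower and none of the 707 was called. That fit sets L1363P 52 alone against the carcinosarcomas and assumes that it varies like the tumours of the other groups.

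On chromosome 7, Tlcd3b to Tial1 (chr7:126814041-128461726, 85 genes) averaged -0.77 in L1363P 26.2, -0.90 in 7.2 and -0.39 in 52, and ran from -0.14 to 0.22 with a median of -0.02 in the 9 carcinosarcomas. The groups did not overlap, and the mean difference was 0.68, or 0.79 within series 5289 and 0.46 within series 5490. In KP, the carcinosarcomas were at -0.002 and 0.20 and the adenocarcinomas ran from -0.23 in KP 39 and KP 236.1 to 0.001 in KP 89. Hras, a Ras GTPase downstream of receptor tyrosine kinases, lies on the same arm (chr7:141189934-141194019). It was at -0.77, -0.87 and -0.39 in the adenocarcinomas and between -0.14 and 0.22 in the carcinosarcomas, a difference of 0.67 ± 0.15 (SE, limma adjusted p = 0.0129). Fgfr2 differed by 0.52 ± 0.10 (SE, limma adjusted p = 0.00582). The KP carcinosarcoma KP 5 had Hras at -0.87, so the KP difference of Hras was -0.23 (limma adjusted p = 0.637).

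On chromosome 8, Atp7b to Gm32098 (chr8:21992783-26698634, 85 genes) averaged -0.78 in L1363P 26.2, -0.84 in 7.2 and -0.04 in 52, and ran from -0.13 to 0.29 with a median of 0.04 in the carcinosarcomas. The groups overlapped through L1363P 52. The mean difference was 0.60, with 0.83 within series 5289, which holds L1363P 26.2 and L1363P 7.2, and 0.14 within series 5490. The stretch holds Fgfr1, another receptor for fibroblast growth factors, which differed by 0.60 ± 0.13 (SE, limma adjusted p = 0.0129). Dusp4, a phosphatase that switches off ERK signalling, lies farther along (chr8:34807610-34819894) and differed by 0.59 ± 0.13 (SE, limma adjusted p = 0.0129). On chromosome 18 the 7 called genes from Gm6173 to Gm45871 averaged -0.79, -0.86 and -0.44 in the 3 adenocarcinomas. The carcinosarcomas ran from -0.55 in L1363P 6 to 0.01, and the mean difference was 0.62.

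Within KP, limma called 1 gene (0.0023%), Ppp1r3a (chr6:14713822-14755274), which encodes a glycogen-targeting subunit of protein phosphatase 1. It was at 4.47 in KP 5 and 4.25 in KP 130.10A, and between -0.22 and 0.26 in the 6 KP adenocarcinomas, so the groups did not overlap. The difference was 4.33 ± 0.35 (SE, limma adjusted p = 2.47e-06). In the KB1(L1363P)P carcinosarcomas Ppp1r3a ran from -0.85 to 1.65. It was also the only gene (0.0023%) whose histology difference differed between the genotypes, by 4.23 (limma adjusted p = 0.000329). Ppp1r3a lies upstream of Met on the same chromosome, in the amplified stretch of KP 5 and in a separate amplified stretch of KP 130.10A.

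Amplification of Met was the most frequent high-level gain of the carcinosarcomas. High-level gain was set at a segment value of 1 or more. Met (chr6:17463349-17573980) was at 5.41 in L1363P 54.2, 3.25 in 45, 4.22 in 53, 5.32 in 54.1 and 5.44 in 21.1, and at 4.47 in KP 5 and 5.04 in KP 130.10A. The other 4 carcinosarcomas, L1363P 4, 17, 18 and 6, lay at 0.001 to 0.04. Among adenocarcinomas Met was at 4.22 in KP 39 and 4.28 in KP 236.1, and the other 7, including all 3 of KB1(L1363P)P, ran from -0.08 to 0.25. The gain was thus present in 7 of 11 carcinosarcomas and 2 of 9 adenocarcinomas, either absent or several log2 units high. The means were 3.02 ± 2.46 (SD, n = 11) and 0.98 ± 1.86 (SD, n = 9), a difference of 2.04 ± 0.89 (SE). limma gave an unadjusted p of 0.0318 and an adjusted p of 0.583. Fisher's exact test over the 394 gain and loss tests of listed genes gave a smallest unadjusted p of 0.0923 and called 0, with 0 under an unadjusted 0.05. Met amplification was thus present in both classes, and the difference in its frequency did not pass a test.

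The amplified stretches around Met differed in length. They measured 3.60 Mb in L1363P 54.2, 15.1 Mb in 45, 3.25 Mb in 53, 4.72 Mb in 54.1, 7.88 Mb in 21.1, 3.61 Mb in KP 5 and 1.60 Mb in KP 130.10A, and 2.79 Mb and 2.50 Mb in the adenocarcinomas KP 39 and KP 236.1. The part common to all 9 tumours was 1.04 Mb (chr6:17281185-18322770) with 13 genes. Besides Met it holds Cav1 and Cav2, which encode caveolae proteins, the Wnt ligand gene Wnt2, the actin-capping gene Capza2 and the chloride-channel gene Cftr. In 3 tumours some of these were at another level than Met: Cav1 and Cav2 were at 1.65 in L1363P 21.1, Capza2 and Wnt2 at 2.59 in L1363P 53, and Cftr at 1.85 in L1363P 45. Each of the 13 was at 1 or more in all 9 tumours. L1363P 45 carried the longest stretch and 6 other amplified stretches, including 1 that ends at Braf, a kinase of the ERK pathway. Just outside the common part, Gm36503 and Gm36669 (chr6:16524755-16788512) averaged 2.32 ± 2.00 (SD) in carcinosarcomas and 0.55 ± 1.45 (SD) in adenocarcinomas, a difference of 1.76.

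Yap1, with Birc2 and Birc3 beside it, was amplified in a smaller set of tumours. Yap1 (chr9:7931999-8004638) was at 4.53 in L1363P 4, 4.43 in L1363P 17 and 4.14 in KP 5 among carcinosarcomas, and at 3.95 in KP 90.1 among adenocarcinomas. KP 130.10A was at 0.64, a gain call below the high level, and the other carcinosarcomas lay at 0.00 or below, down to -0.36. The means were 1.18 ± 2.06 (SD) and 0.32 ± 1.40 (SD), a difference of 0.85 ± 0.72 (SE, unadjusted limma p = 0.251). Birc2 and Birc3, which encode inhibitors of apoptosis, lie in the same segment and had the same values. The part common to the 4 tumours was 2.69 Mb (chr9:6928550-9619784) with 33 genes, from Dync2h1 to Gm46102. It further holds a cluster of matrix metalloproteinase genes, among them Mmp3, Mmp13 and Mmp7, the channel gene Trpc6 and the progesterone receptor gene Pgr.

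The 2 tumours labelled 2% and 5% epithelial, L1363P 4 and L1363P 17, were those of KB1(L1363P)P with the Yap1 amplification, and no other stretch was at high level in L1363P 4. Met and Yap1 were both amplified in 1 tumour, KP 5. Either was amplified in 9 of 11 carcinosarcomas, the exceptions being L1363P 18 and L1363P 6, and in 3 of 9 adenocarcinomas, all of them KP. None of the 3 KB1(L1363P)P adenocarcinomas had either, against 7 of 9 carcinosarcomas of that genotype. Combining the genes was chosen after their values were seen, so no test is given for it.

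**Figure D5:**
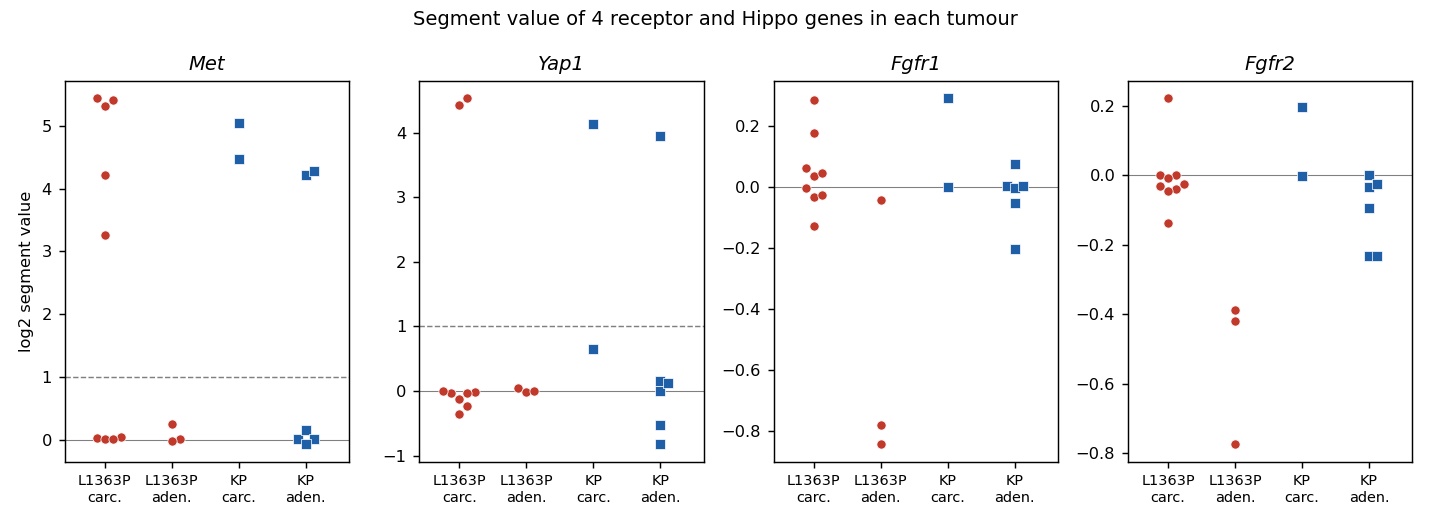
Segment value of 4 receptor and Hippo genes in each tumour. The y axis gives the log2 segment value, each point is 1 tumour by genotype and histology (carc. for carcinosarcoma, aden. for adenocarcinoma), and the dashed line is the high-level threshold of 1; the axes differ in range. Met is at 3.25 or higher in 7 carcinosarcomas and 2 adenocarcinomas and at 0.25 or lower in the rest, and Fgfr2 is lowest in the 3 KB1(L1363P)P adenocarcinomas.

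Outside these loci, high-level gains lay at different places in different tumours. Among carcinosarcomas, L1363P 6 had 4 amplified stretches on chromosome 10, the longest of 19.2 Mb from Grik2 to Arid5b, and one of 6.67 Mb that ends at Lin28b, an inhibitor of let-7 maturation. L1363P 18, with neither Met nor Yap1 amplified, had modest gains on chromosome 6 with a highest value of 1.14, in one of which lies the recombination gene Rad52. Adenocarcinomas held more of the listed genes at high level: 17 genes against 6 in carcinosarcomas, and 19 in all. L1363P 7.2 had a stretch of 41.0 Mb on chromosome 15, with the Hippo kinase gene Stk3 and the epithelial factor gene Grhl2, and another of 0.561 Mb with Myc and Pvt1. KP 131.03A had a stretch of 8.79 Mb on chromosome 3 with Nras, Mcl1 and Notch2. KP 236.1 had Twist1, a driver of epithelial-mesenchymal transition, in a stretch of 3.03 Mb on chromosome 12.

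The number of chromosomes with a high-level gain was 1 to 3 per tumour in each class, with a median of 1 in carcinosarcomas and 2 in adenocarcinomas. The genes at high level per tumour ran from 26 to 576 (median 52) and from 39 to 966 (median 234). Deep loss, a segment value of -1 or lower, touched no listed gene. It formed stretches in 3 tumours: 22.4 Mb on chromosome 14 in the carcinosarcoma L1363P 54.1, 5.65 Mb on X in the adenocarcinoma L1363P 52 and 8.19 Mb on chromosome 12 in the adenocarcinoma KP 89.

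The remaining recurrent events were shared by few tumours. On chromosome 6, 474 genes between Gm18482 and Gm18325 were each lost in 3 of 11 carcinosarcomas, among them Fancd2, Vhl, Foxp1 and the Hippo genes Mob1a and Vgll4. Among adenocarcinomas Fancd2 had a loss call in 1 of 9, KP 39, in which 80% or more of the genes of chromosome 6 were lost. On chromosome 1, Gm8367 was gained in 2 of 11 and in no adenocarcinoma. On chromosome 14, 319 genes between Gm33321 and Gm33203, with the retinoblastoma gene Rb1 among them, were each lost in 3 of 11, and Gm33321 in 3 of 9 adenocarcinomas. In adenocarcinomas, Kpna7 on chromosome 5 was gained in 4 of 9, against 1 of 11 carcinosarcomas, Tmem104 on chromosome 11 in 3 of 9 against 2 of 11, and Mamld1 on X in 3 of 9 against 0 of 11. On chromosome 12, 4930404H11Rik was lost in 8 of 9 and in 9 of 11 carcinosarcomas. Gm6173 on chromosome 18 was lost in 4 of 9 against 1 of 11, and Gm5114 on chromosome 7 in 3 of 9 against 0 of 11. These genes were picked as the most frequent of their class, and these counts carry no test.

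The engineered genes did not separate the classes at gene level. Trp53 had a median of 0.01 in carcinosarcomas (-0.02 to 0.27) and -0.001 in adenocarcinomas (-0.18 to 0.51), a difference of 0.01 ± 0.07 (SE). Brca1 had medians of 0.01 and -0.001, with a lowest carcinosarcoma value of -0.02 and a lowest adenocarcinoma value of -0.85, the loss call of KP 131.03A. Its difference was 0.15 ± 0.10 (SE, unadjusted limma p = 0.141). Brca2, a gene of homologous recombination, differed by -0.01 ± 0.10 (SE). Values built from bins of 20 kb need not show deletions of a few exons.

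Of 201 genes in 11 lists, 197 were measured: 119 were higher and 78 lower in carcinosarcomas. Over all 43513 genes, 28088 were higher and 15425 lower, so most genes leaned the same way. An unadjusted limma p under 0.05 was reached by 14 of 197 (7.11%) in the pooled comparison, against 7.39% of all genes. In KB1(L1363P)P 4 of 197 (2.03%) were called, against 1.62% of all genes, namely Fgfr2, Fgfr1, Hras and Dusp4. Both shares were near that background. The median pooled difference of all 43513 genes was 0.05, and list medians are read beside it. The counts of higher genes in each list are read beside the 28088 of 43513, and they were not tested.

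For the 23 receptor and Ras genes the median difference was 0.004, with 12 higher and 11 lower and 3 under an unadjusted p of 0.05. The Hippo list of 17 genes had a median of 0.07, with 10 higher and 1 under 0.05. Tead2, a DNA-binding partner of Yap1, ran from -0.37 to 0.16 in carcinosarcomas and from -0.77 to -0.01 in adenocarcinomas (difference 0.21 ± 0.10 SE, unadjusted limma p = 0.0383). Wwtr1, which encodes the Yap1 relative TAZ, stayed within -0.07 and 0.03 in carcinosarcomas and reached -0.79 in KP 131.03A and -0.77 in L1363P 26.2 (difference 0.20 ± 0.10 SE, unadjusted limma p = 0.0603).

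The 21 Myc and cell-cycle genes had a median difference of 0.03, with 12 higher. Rbl2, a pocket protein of the Rb family on chromosome 8, had a loss call in 0 of 11 carcinosarcomas and 3 of 9 adenocarcinomas (difference 0.31 ± 0.12 SE, unadjusted limma p = 0.0132). Ccne1, cyclin E1 on chromosome 7, had loss calls in 0 and 2 (difference 0.22 ± 0.10 SE, unadjusted limma p = 0.0302). Among 10 p53 regulators and apoptosis genes 8 were higher, with a median of 0.06. Bax, a pore-forming effector of apoptosis, differed by 0.21 ± 0.10 (SE, unadjusted limma p = 0.0383), and Bbc3, which encodes Puma, by 0.14 ± 0.09 (SE, unadjusted limma p = 0.157).

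The 11 PI3K and Tor genes had the largest list median, 0.15, with 9 higher and 2 under an unadjusted p of 0.05. These were Rptor (0.23 ± 0.10 SE, unadjusted limma p = 0.0269) and the kinase gene Akt2 (0.23 ± 0.10 SE, unadjusted limma p = 0.0303), the latter on the part of chromosome 7 with Ccne1. Loss calls covered 0.826% of the values of this list in carcinosarcomas and 13.1% in adenocarcinomas, against 6.73% and 14.8% over all genes.

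The genes usually tied to the histology of these classes showed small differences. Over all 43513 genes, 28088 were higher in carcinosarcomas, with a median difference of 0.05. Among 21 drivers of epithelial-mesenchymal transition, 16 were higher with a median of 0.07, a count that was not tested. None of these drivers was under an unadjusted limma p of 0.05. The smallest p were those of Smad2, a mediator of TGF-beta signalling (0.24 ± 0.12 SE, unadjusted limma p = 0.0610), and Cdh2, N-cadherin (0.19 ± 0.10 SE, unadjusted limma p = 0.0695), both on chromosome 18. Among 22 genes of epithelial identity, 13 were higher with a median of 0.05. Ctnna1, the catenin that links cadherins to actin, had a loss call in 2 of 9 adenocarcinomas and in 0 of 11 carcinosarcomas (difference 0.21 ± 0.10 SE, unadjusted limma p = 0.0433). Cdh1, E-cadherin, had a loss call in 1 of 11 carcinosarcomas, at -0.89, and in 3 of 9 adenocarcinomas (difference 0.24 ± 0.14 SE, unadjusted limma p = 0.104).

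Of 17 Wnt and Notch genes 8 were higher, with a median of -0.03. Apc, the brake on beta-catenin, lies beside Ctnna1 and had the same values, while Fbxw7, which targets Notch and cyclin E for degradation, differed by 0.20 ± 0.10 (SE, unadjusted limma p = 0.0604). The 32 genes tied to recombination repair or to the response to PARP inhibitors had a median of 0.02, with 18 higher, and none was under an unadjusted p of 0.05. Fancd2, a core Fanconi anaemia protein, pointed the other way: it ran from -0.86 to 0.06 in carcinosarcomas and from -0.50 to 0.52 in adenocarcinomas, with loss calls in 3 of 11 and 1 of 9 (difference -0.22 ± 0.13 SE, unadjusted limma p = 0.0962). Fanca on chromosome 8 had the values of Cdh1.

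Of 20 further tumour suppressors 11 were higher, with a median of 0.03 and loss calls for 13.6% of values in carcinosarcomas and 23.3% in adenocarcinomas. Cyld, a deubiquitinase that restrains NF-kappaB, shared the values of Rbl2 on chromosome 8. Fat1, an atypical cadherin, ran from -0.13 to 0.27 in carcinosarcomas and from -0.84 to 0.11 in adenocarcinomas, with loss calls in 0 of 11 and 3 of 9 (difference 0.30 ± 0.12 SE, unadjusted limma p = 0.0194). Rbl2, Cyld, Fat1, Cdh1 and Fanca thus follow the low chromosome 8 of the same adenocarcinomas, L1363P 26.2, L1363P 7.2 and KP 131.03A.

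The carcinosarcomas L1363P 54.1 and L1363P 54.2 carry the same leading tumour number, and whether they came from one animal is not stated. They shared 4 breakpoints with a step over 0.1, 12.5% of the 32 in 54.2 and 9.30% of the 43 in 54.1. Among the 189 other pairs of the 20 tumours the most shared was 7 and the median 0. Both had Met amplified, at 5.41 and 5.32, while their labelled epithelial percentages were 75% and 90%.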

How the data were processed

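Low-coverage sequencing of genomic DNA gave 3 matrices with 1 row per gene symbol. Per the labels' protocols, BWA alignments were counted in 20 kb bins, and the counts were corrected for GC content and mappability. The submitters' processing notes name cutadapt 2.5, BWA 0.7.17, SAMtools 1.10, Picard and genome build mm10, while the protocol text names a human build. The authors deposited log2 ratios, log2 segment values and a copy score, which matched the copy number computed from the segment value and rounded in 99.9919% of values. How segments were made, what the ratios refer to and how bins were assigned to genes is not given in the sources used here.

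Tumours were grouped by the labelled genotype and histology. Segment values were fitted with limma 3.58.1 in R 4.3.3, pooled and in 4 genotype and histology groups, with adjustment over all genes and a threshold of 0.05. Values per tumour were compared by two-sided exact permutation tests (SciPy 1.17.1, NumPy 2.4.6 and pandas 2.3.3 in Python 3.11.15), and calls by Fisher's exact test. Positions came from RefSeq on GRCm38.p6, where 32661 symbols had an entry and 30 an entry under an older name, and 10822 stayed unplaced. Segments under 3 Mb were removed and those within 0.1 joined before transitions were counted. The pooled limma fit, the permutation test and the counting of breakpoints and transitions were tested on simulated data. In the simulated fit genes varied independently, unlike genes that share a segment, and the fits within a genotype were not simulated.

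The members, the 11 gene lists and the tests were chosen with earlier results of these data known. The text names the engineered genes, from each list up to 6 called genes or else the 2 with the smallest p, listed genes past the high-level or deep-loss threshold in 2 or more tumours, up to 6 called regions of largest difference or else of smallest p on different chromosomes, and the genes most often gained or lost in a class on 3 chromosomes each. Amplified neighbours of Met, Yap1 and other listed genes were named after their values were seen. Erbb3, Cdkn2b, Akt1 and Shld3 were listed and not measured. Alternatives covered covariates, library series, scaling, thresholds, epithelial percentage and single tumours.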

Additional observations from a re-analysis of the deposited data

Results flagged for a closer look

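In groups of 6 or 9 tumours the highest or lowest value was compared with its nearest neighbour, and it lay apart from the others in 24 of 89 tested sets. By chance about 1 in 20 sets gives such a value if values are normally distributed, which those of amplified genes are not. Sets that share a chromosome segment are also not independent. KP 131.03A had the highest gained share of the adenocarcinomas, 12.8% against 5.99% for the next. Its Trp53 value of 0.51 was the highest and its Brca1 value of -0.85 the lowest, both among all adenocarcinomas and among those of KP, and its chromosome 3 level of -0.39 was the lowest of the KP adenocarcinomas. KP 236.1 had the highest noise of neighbouring log2 ratios, 0.0861, among all adenocarcinomas and among those of KP. KP 89 stood apart among KP adenocarcinomas on chromosome 13 (-0.66) and chromosome 18 (-0.64). L1363P 26.2 had the lowest chromosome 7 level (-0.77) and the lowest Rptor value (-0.63) of the adenocarcinomas.

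KP 90.1 was the adenocarcinoma with the Yap1, Birc2 and Birc3 amplification, at 3.95 against 0.16 for the next. Among the KB1(L1363P)P carcinosarcomas, L1363P 54.1 had the highest Fgfr2 and Hras values (both 0.22), L1363P 6 the lowest chromosome 18 level (-0.50) and L1363P 21.1 the lowest chromosome 3 level (-0.074). L1363P 4 had the highest Trp53 value there (0.15) and L1363P 53 the highest Brca1 value (0.32). The histology difference of Ppp1r3a differed between the genotypes by 4.23 (limma adjusted p = 0.000329), with 2 KP carcinosarcomas behind the KP side.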

How the results depend on the processing

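No paired analysis was possible because carcinosarcomas and adenocarcinomas of a genotype share no tumour number. The pooled comparison, with 0 called genes, had 185 with genotype as a covariate, 282 with genotype and library series, and 2 within series 5490. In KB1(L1363P)P they were 1291 with the tumours of that genotype alone, and, in settings chosen after the data were seen, 2619 within series 5289, 280 within series 5490 and 183 without carcinosarcomas under 50% epithelial. In KP the added fits gave 325 within series 5289 and 7 within series 5490, each with 1 KP carcinosarcoma that is assumed to vary like the other groups. Leaving out 1 tumour gave 182 to 5314 genes in KB1(L1363P)P and 1 to 484 in KP, the highest without KP 130.10A (446 lower), where KP 5 stands alone on the same assumption. Chromosomes called numbered 1 within genotype, 2 within genotype and library series, 2 in KB1(L1363P)P alone, and 0 to 1 without single tumours.

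The altered share differed by -11.4 to -6.33 points and the lost share by -9.43 to -5.12 when 1 tumour was left out. Their adjusted p passed without KP 90.1 alone (0.0338 and 0.0314) and the lost share's also without KP 40. Signs turned for the gained share in KP alone (0.87). They turned for transitions within library series (0.167), in KP (2.00), in series 5490 (2.65), without carcinosarcomas under 50% epithelial (1.53) and over single tumours (-0.818 to 0.807). They also turned for chromosome 10 in KP (-0.059), and chromosome 12 ran from -0.065 to 0.012 over single tumours. Yap1, Birc2 and Birc3 differed by -0.67 within series 5490, and Brca1 by -0.040 within series 5289. Trp53 gave -0.0031 within series 5490, -0.0075 on log2 ratios, -0.023 centred, -0.0063 without carcinosarcomas under 50% epithelial and -0.021 to 0.065 over single tumours. Brca2 gave 0.0084 without those carcinosarcomas and -0.062 to 0.052 over single tumours. The cause was not tested. Apart from the removal of single tumours, 307 of 319 alternatives for named genes kept direction and side of the threshold, as did 74 of 80 for the levels of 8 chromosomes and 58 of 63 for the 5 measures. Each was set against the pooled comparison, in which none was called, so keeping the side of the threshold meant staying uncalled. Named genes that share a segment were counted separately. The depth behind each value is unknown, and groups of 2 and 3 tumours limit every comparison within a genotype.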
